A study of Mus musculus with 24 samples.

Results

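Hepatic expression of 35 interferon-stimulated genes was described in 24 mice in which the major urinary protein (Mup) gene cluster was either deleted or intact. The genes were taken as a list of names with no threshold on a measured value, but with earlier results of these data known. All 35 were among the 25746 genes in the count data of every mouse and among the 12330 genes that passed the expression filter. The groups mWT, mKO, fWT and fKO held 6 mice each, and liver RNA of every mouse was sequenced, where m and f stand for male and female, WT for wildtype and KO for the homozygous deletion of the Mup cluster. All mice were 12 weeks old, were labelled C57/BL6N and no treatment is given in the labels. The deletion was made with CRISPR/Cas9 and bred from 1 founder male by an intercross of heterozygotes, so that all KO mice carry the same deletion event. The litter and cage of a mouse are not in the labels. The comparisons address how deletion of the Mup cluster changes hepatic gene expression in each sex.

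Interferons are secreted proteins by which cells announce viral infection. Type I and type III interferons signal through JAK kinases to a complex that holds Stat2 and Irf9 and binds a promoter sequence named the interferon-stimulated response element (ISRE), while interferon gamma acts on the gamma-activated sequence (GAS). The genes switched on in this way encode transcription factors that amplify the response, sensors of foreign RNA, enzymes that block viral replication, GTPases that attack vacuoles of intracellular microbes, and chemokines that recruit T cells. In liver, hepatocytes as well as resident macrophages, the Kupffer cells, express and induce them.

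The promoters of 7 genes are shown so that Gbp3, Gbp2, Gbp7, Igtp and Oas1a, with large sex differences described further down, can be set beside Irgm1 and Isg15, with smaller ones. A RefSeq promoter window of 300 bases (GRCm38.p6, 250 before to 50 after a gene's start) was available for 27 of the 35 genes, in 33 windows. Usp18, Mx1, Mx2, Oas2, Dhx58, Iigp1, Parp14 and Rtp4 had none. The ISRE was searched as GAAA, any 2 bases and GAAA, and the GAS as TTCNNNGAA, each on both strands, and matches that overlapped one another were all kept. Of the 32851 windows of all genes, 3.44% held an ISRE match and 8.30% a GAS match, against 16 and 8 of the 33 windows of the interferon-stimulated genes. An ISRE match was found in 12 of the 18 genes with a window that differed between the sexes in either genotype and in 4 of the 9 others. Each line gives the last 110 bases before the start on the gene's own strand, and capitals mark ISRE and GAS matches.
Gbp3, chr3:142559934-142560043, plus strand: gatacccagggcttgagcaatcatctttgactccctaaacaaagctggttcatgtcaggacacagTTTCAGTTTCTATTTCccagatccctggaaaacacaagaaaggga
Gbp2, chr3:142620553-142620662, plus strand: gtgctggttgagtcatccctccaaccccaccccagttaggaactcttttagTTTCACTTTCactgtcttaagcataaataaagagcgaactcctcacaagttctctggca
Gbp7, chr3:142530226-142530335, plus strand: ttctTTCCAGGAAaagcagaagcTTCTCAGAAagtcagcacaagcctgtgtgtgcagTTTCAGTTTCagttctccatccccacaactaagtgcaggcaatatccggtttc
Igtp, chr11:58199446-58199555, plus strand: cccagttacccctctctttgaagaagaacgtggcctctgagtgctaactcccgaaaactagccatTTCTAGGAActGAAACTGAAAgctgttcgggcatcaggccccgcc
Oas1a, chr5:120907526-120907635, minus strand: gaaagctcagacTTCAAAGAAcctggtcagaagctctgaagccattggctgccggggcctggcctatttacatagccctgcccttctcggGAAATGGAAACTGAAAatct
Irgm1, chr11:48871421-48871530, minus strand: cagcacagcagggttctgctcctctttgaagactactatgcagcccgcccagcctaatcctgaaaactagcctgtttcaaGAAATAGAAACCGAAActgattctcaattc
Isg15, chr4:156200819-156200928, minus strand: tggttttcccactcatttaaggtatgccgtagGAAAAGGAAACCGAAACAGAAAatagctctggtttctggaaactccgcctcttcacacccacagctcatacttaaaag
All 7 stretches hold at least 1 ISRE match, and Gbp7, Igtp and Oas1a a GAS match besides. The 7 genes shown are all among the 16 with an ISRE match, so that this count says nothing about the others. Of the genes called for a sex difference, Cxcl9, Ifi44, Irf9, Oasl2 and Xaf1 held neither match in their windows. Ifit2 held only a GAS match, and these genes are not shown. The ISRE match nearest to the start began 39 bases before it in Gbp3, 59 in Gbp2, 53 in Gbp7, 34 in Igtp, 14 in Oas1a, 24 in Irgm1 and 66 in Isg15.

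Each mouse contributed between 15361901 and 26261394 counts. Expression is given as CPM, the counts of a gene per 1e+06 counts of its library, scaled between libraries by the TMM method. Without the TMM scaling, the 22 Mup genes summed to between 16970 and 36820 CPM in mWT and between 3444 and 5554 CPM in fWT mice. In any KO mouse they summed to at most 0.461 CPM, where 3 counts correspond to at most 0.195 CPM, likewise without that scaling. The genotype of every library therefore matched its label. The 9 matched hepatocyte markers summed to between 107400 and 161800 CPM, while those of other cells were lower. The 11 Kupffer cell and macrophage markers summed to between 99.3 and 339 CPM and the 5 pan-leukocyte markers (Ptprc, Coro1a, Laptm5, Cd53, Cd52) to between 12.7 and 43.3 CPM. In such bulk samples, fewer cells of a type and less RNA per cell cannot be told apart.

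The 35 genes were expressed at low to moderate levels. The lowest value of any of them was that of Oas3 in 1 mKO mouse, with 3 counts. Per kilobase of exon, the mean level over all 24 mice was highest for Bst2 (tetherin, which holds budding virus at the cell surface) with 73.4 ± 8.77 CPM per kb (SD, n = 24), followed by the GTPases Iigp1 (65.1 ± 12.5 CPM per kb) and Igtp (20.1 ± 8.30 CPM per kb). Bst2 and Iigp1 differed by less than their spread. Ifi35, Irgm1, Stat2, Isg15, Rtp4, Ifit3, Irf1, Irf7 and Irf9 lay between 12.3 and 5.53 CPM per kb, and the lowest levels were those of Mx1 (0.439 ± 0.157) and Oas3 (0.103 ± 0.0591 CPM per kb). Expressed as a percentage of the mean, the spread over the 24 mice was smallest in Ifi35, for which all 4 group means lay between 21.0 and 21.5 CPM.

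**Figure D1:**
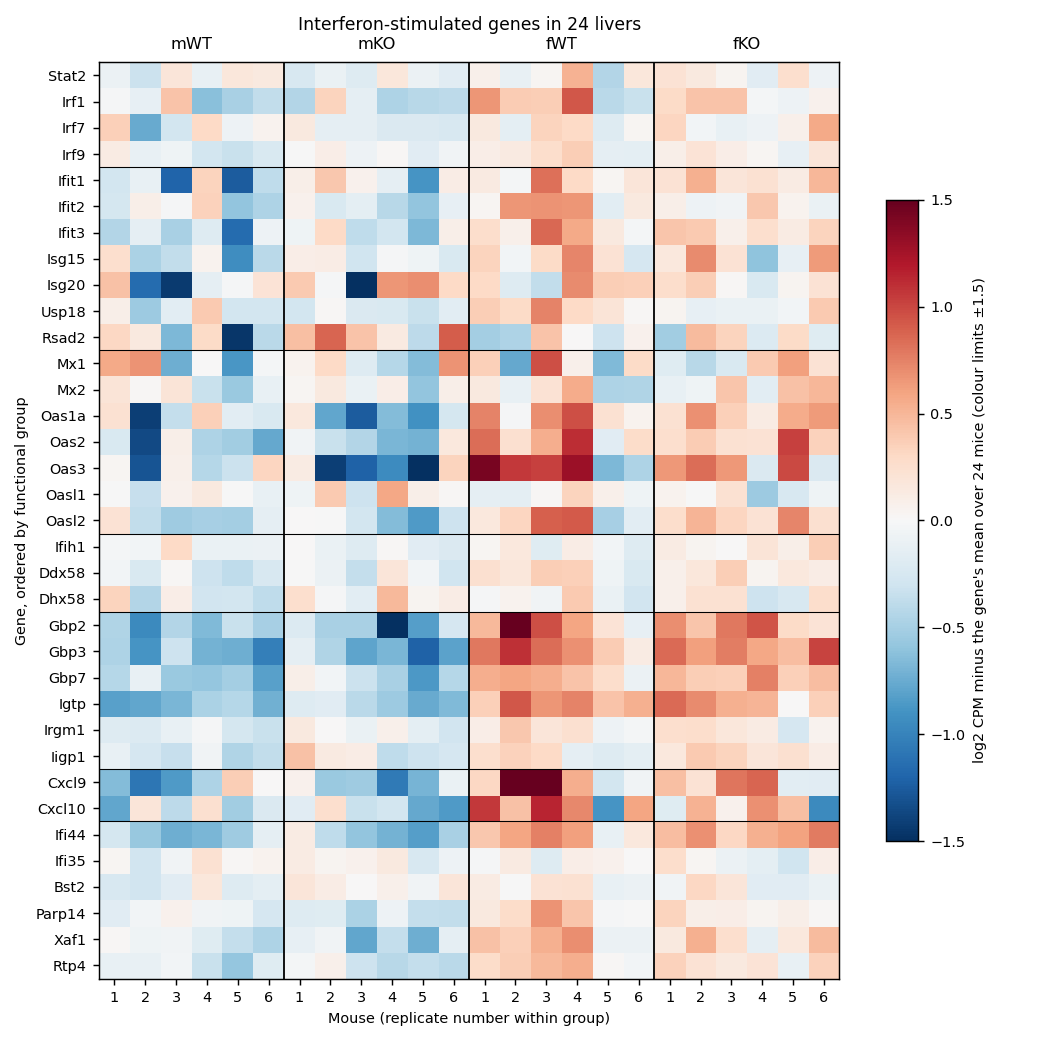
Each row is 1 of the 35 interferon-stimulated genes, ordered by functional group (black lines), and each column 1 of the 24 mice, ordered by group. Colour is the log2 CPM minus the gene's mean over the 24 mice; most rows are bluer (lower) in the 12 males and redder (higher) in the 12 females, no row separates KO from WT mice of a sex, and fWT mice 5 and 6 are paler than the other females.

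Deletion of the Mup cluster changed none of the 35 genes at the study's cut-off, an unadjusted p-value under 0.01, in males (0 of 35) or in females (0 of 35). Of all genes tested, 3.52% passed it in males and 0.868% in females. At an adjusted p-value under 0.05 (edgeR's quasi-likelihood test, Benjamini-Hochberg adjustment over all 12330 genes), again 0 of the 35 passed in either sex, where 0.211% and 0.0892% of all genes did. DESeq2 gave 0 of 35 in both sexes as well. At an unadjusted p-value under 0.05, 2 of the 35 passed in males, where 10.6% of all genes did, and 1 in females, where 4.87% did. The median log2 fold change of the 35 genes was 0.04 in males and −0.05 in females, against a median near 0 over all genes, with 19 genes above 0 in males and 13 in females. No gene had KO and WT mice that did not overlap, a separation that 1.09% of all genes showed in males and 0.349% in females.

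The precision of these comparisons differed between genes. The 95% confidence interval of the KO effect lay within a doubling or halving (a log2 fold change between −1 and 1) for 32 of the 35 genes in males and 34 of 35 in females. The exceptions were the low or variable genes Oas3, Isg20 and Rsad2 in males and Cxcl9 in females, with interval bounds of −1.24, 1.05, 1.18 and −1.01. The median standard error was 0.17 in males and 0.15 in females.

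Among the transcription factors, Irf7, the master regulator of interferon production that is itself induced by interferon, had 12.6 to 27.3 CPM in mWT mice with a median of 21.1 and 17.9 to 23.5 CPM in mKO mice with a median of 18.9. In females, its level was between 18.5 and 26.9 CPM in fWT (median 22.7) and between 19.7 and 31.5 CPM in fKO mice (median 21.5). All 4 groups overlapped, and the KO effect on Irf7 was −0.10 ± 0.15 (log2 fold change ± standard error) in males and 0.04 ± 0.15 in females. Stat2, the most highly expressed of the 4 factors, gave −0.11 ± 0.12 in males and 0.01 ± 0.12 in females. Irf1 gave −0.06 ± 0.21 and −0.15 ± 0.21 and Irf9 0.12 ± 0.09 and −0.03 ± 0.09.

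The lowest unadjusted p-values in males were those of Rsad2 and Bst2. Rsad2 encodes viperin, which makes a chain-terminating nucleotide that stops viral polymerases. It had 3.35 to 11.4 CPM in mWT mice with a median of 8.63 and 7.02 to 17.3 CPM in mKO mice with a median of 12.5, so that the groups overlapped widely. The log2 fold change was 0.64 ± 0.26 (adjusted p = 0.366 by edgeR). Without mKO mouse 5, the lowest of its group, it was 0.76 and passed the unadjusted cut-off of 0.01. Bst2 had 53.8 to 74.4 CPM in mWT mice with a median of 58.1 and 63.7 to 74.8 CPM in mKO mice with a median of 70.2. Only mWT mouse 4 of the 6 mWT mice lay within the range of the mKO mice. Bst2 gave 0.22 ± 0.09 (adjusted p = 0.355 by edgeR), and without mWT mouse 4 it gave 0.29 and passed that cut-off.

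In females, Usp18, the protease that removes Isg15 from proteins and dampens the interferon receptor, had the lowest p-value. It lay between 11.47 and 19.0 CPM in fWT (median 13.8) and between 10.4 and 14.8 CPM in fKO mice (median 10.8). The fKO mice 1 and 6, with 11.64 and 14.83 CPM, lay within the range of the fWT mice. All other fKO mice had 11 CPM or less. The log2 fold change was −0.31 ± 0.13 (adjusted p = 0.929 by edgeR). It passed the unadjusted cut-off of 0.01 without fWT mouse 6, at −0.37, and without fKO mouse 6, at −0.40.

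The KO effects of males and females did not differ detectably in these genes. For the difference of both effects, 0 of the 35 genes passed p under 0.01 (1.16% of all genes) and 0 passed an adjusted p under 0.05 (0.00811% of all genes, which is 1 gene). At p under 0.05, 2 of the 35 passed, against 5.99% of all genes. These were the RNA sensor Ifih1 (MDA5), with a male minus female effect of −0.26, and Bst2 with 0.28 (adjusted p = 0.823 for both by edgeR). Without mWT mouse 4 or without fKO mouse 2, Bst2 passed p under 0.01, with 0.35 and 0.34. For 29 of the 35 genes the interval of the difference lay between −1 and 1.

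**Figure D2:**
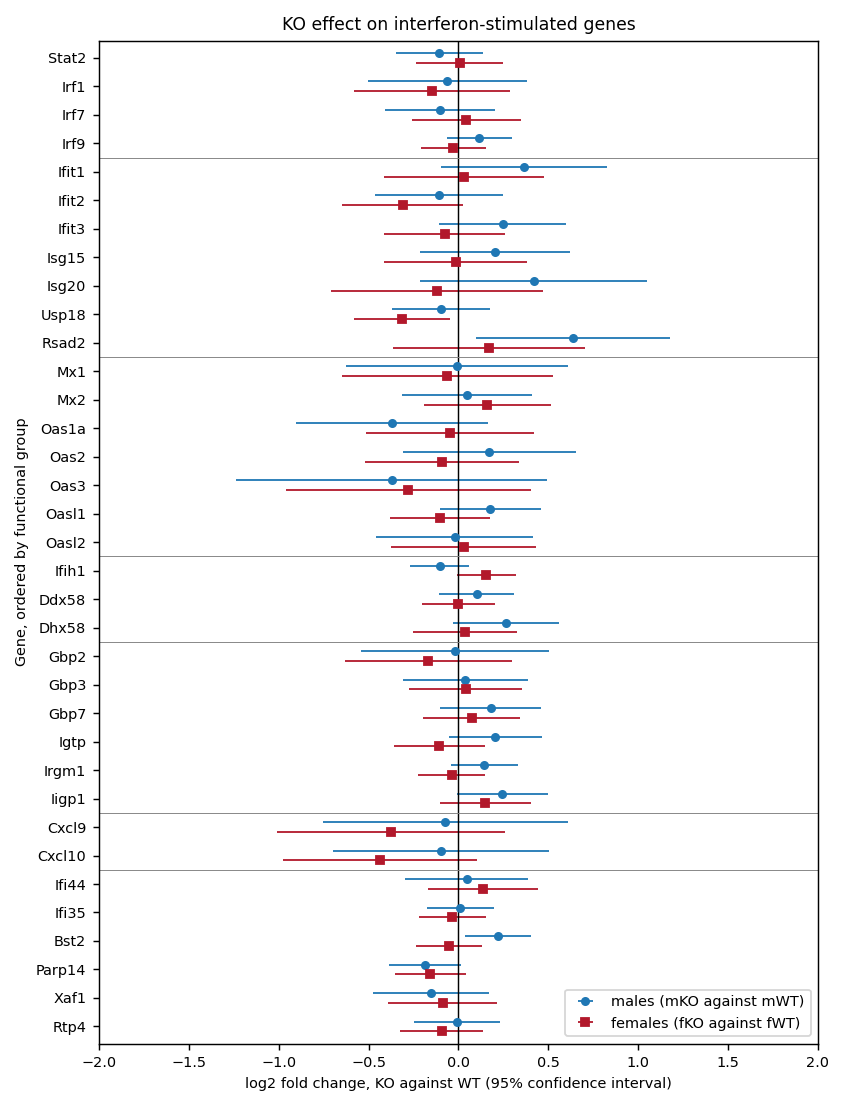
Log2 fold change of each gene between KO and WT mice, with its 95% confidence interval from the edgeR fit (n = 6 mice a group); blue circles are males and red squares females, and genes are ordered by functional group. The points scatter around 0 between −0.44 and 0.64, and the intervals of 32 male and 34 female estimates stay within −1 and 1.

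The sexes differed in many of these genes in both genotypes, always towards higher expression in females. In WT mice, 20 of the 35 genes were lower in males at p under 0.01 and 0 were higher, where 18.2% of all genes passed, 9.15% lower and 9.03% higher in males. At an adjusted p under 0.05, 17.3% of all genes passed. Of the 20, 19 also had an adjusted p under 0.05 (8.82% of all genes in that direction). In KO mice, 13 of the 35 were lower in males at p under 0.01 and 0 were higher, where 15.9% of all genes passed, 7.89% lower and 7.97% higher in males. At an adjusted p under 0.05, 14.4% of all genes passed. Of the 13, 12 had an adjusted p under 0.05 (7.13% of all genes in that direction). The remaining gene of the 13, Oas3, passed the expression filter mainly through the females. The median log2 fold change between males and females was −0.48 in WT and −0.29 in KO mice, beside −0.002 and −0.005 over all genes, with 34 and 29 of the 35 genes below 0. Male and female mice did not overlap in 7 of the 35 genes in WT and 8 in KO mice, all lower in males, which 4.05% and 3.41% of all genes were in that direction.

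The comparison in KO mice uses other mice than the one in WT mice. All 20 genes called in WT mice had the same sign in KO mice, as did 2152 of the 2241 called in WT mice among all genes. Of the 20, 10 were called in KO mice too. These 10 are 50% of the calls in WT and 76.9% of the calls in KO mice, where of all genes called in WT 50.6% were called in KO mice in the same direction, and of all called in KO mice 57.9% in WT. In WT mice only, 10 genes passed p under 0.01 (Irf9, Ifit1, Ifit2, Ifit3, Usp18, Ddx58, Irgm1, Iigp1, Cxcl9, Cxcl10), and in KO mice only, 3 did (Oas1a, Oas3, Ifih1). The test of whether the sex difference differs between genotypes is the same as that of the difference of the KO effects, and it called none of the 35 genes.

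**Figure D3:**
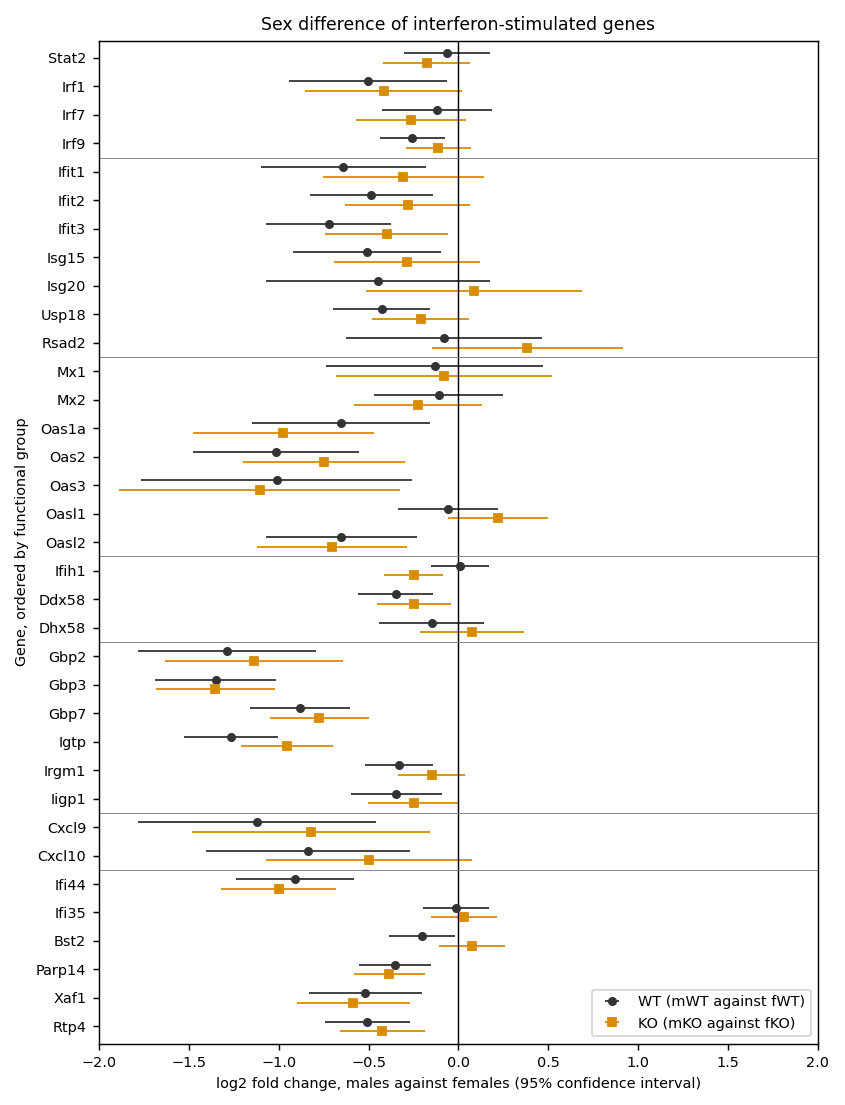
Log2 fold change of each gene between males and females, with its 95% confidence interval from the edgeR fit (n = 6 mice a group); black circles are WT and orange squares KO mice, and values below 0 are lower in males. The GTPases Gbp2, Gbp3, Gbp7 and Igtp and Ifi44 lie far to the left together with Oas1a, Oas2, Oas3 and Cxcl9, at up to −1.35, while Stat2, Mx1, Mx2, Ifi35 and Dhx58 lie near 0 in both genotypes.

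The interferon-inducible GTPases, which assemble on the membranes around intracellular bacteria and parasites, had the largest median sex difference of the functional groups in both genotypes. All 6 were lower in mWT than in fWT mice at p under 0.01 and 4 of 6 in KO mice and the medians of their log2 fold changes were −1.07 and −0.86. Igtp (Irgm3) had 21.3 to 27.8 CPM in mWT mice with a median of 23.0, 22.2 to 33.2 CPM in mKO mice with a median of 26.9, 48.0 to 71.5 CPM in fWT mice with a median of 56.7 and 37.6 to 67.6 CPM in fKO mice with a median of 53.5. Every female lay above every male, and the log2 fold change was −1.27 ± 0.13 in WT (adjusted p = 4.79e-08 by edgeR) and −0.95 ± 0.13 in KO mice. Gbp3 lay between 3.84 and 8.15 CPM in the males and between 9.69 and 19.1 CPM in the females, again without overlap. Its log2 fold change was −1.35 ± 0.16 in both genotypes (adjusted p = 1.09e-06 by edgeR in WT).

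Gbp2 and Gbp7 lie beside Gbp3 on chromosome 3 and followed the same order. Gbp2 was expressed between 1.69 and 4.28 CPM in males and between 4.54 and 15.5 CPM in females, the highest being fWT mouse 2. Its log2 fold change was −1.29 ± 0.24 in WT and −1.14 ± 0.24 in KO mice. Gbp7 ranged from 11.2 to 21.6 CPM in males and from 19.2 to 34.4 CPM in females. The sexes were apart within each genotype, although mKO mice 1 and 2 exceeded fWT mouse 6, and the log2 fold change was −0.88 ± 0.14 in WT and −0.78 ± 0.13 in KO mice.

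The other GTPases differed less between the sexes. Irgm1, which controls the loading of its relatives onto membranes, gave −0.33 ± 0.09 in WT (adjusted p = 0.0120 by edgeR) and −0.15 ± 0.09 in KO mice (adjusted p = 0.289). Iigp1, which had the highest CPM of all 35 genes, ranged from 273 to 361 CPM in mWT, 287 to 506 in mKO, 326 to 474 in fWT and 401 to 488 CPM in fKO mice. It gave −0.34 ± 0.12 in WT (adjusted p = 0.0526 by edgeR) and −0.25 ± 0.12 in KO mice, where it was called only without mKO mouse 1. Its call in WT mice was lost when any 1 of 14 of the 24 mice was left out, with p up to 0.0317 (mWT 2, 3, 5 and 6, fWT 1, 2 and 3, mKO 2 and 3, and fKO 1, 3, 4, 5 and 6). The reads of a part of these genes can be shared with relatives. Of the 100-base stretches of the longest transcript, 10.2% in Gbp7 occur in another gene's transcripts, as do 5.67% in Igtp (Irgm2) and 0.929% in Gbp3, while Gbp2, Irgm1 and Iigp1 had none. Igtp and Irgm2 also overlap in their exons on the same strand.

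**Figure D4:**
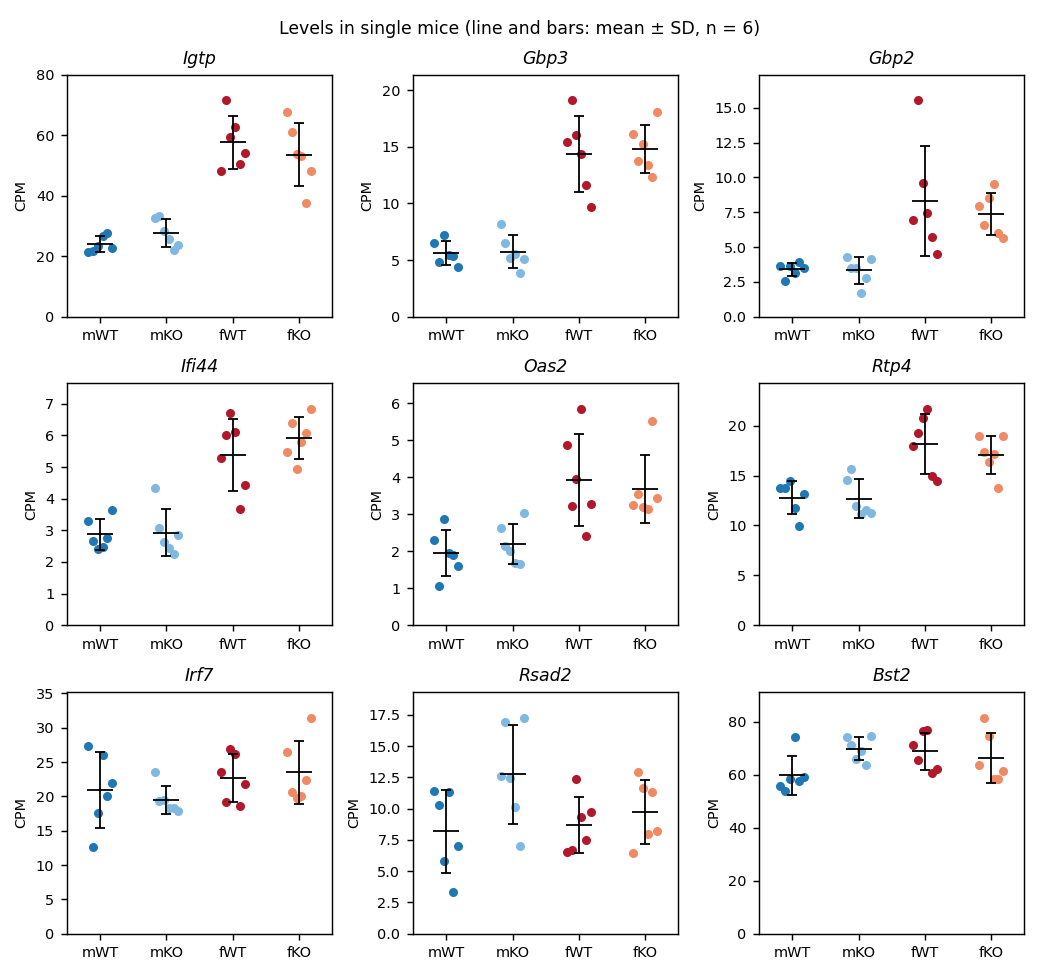
CPM of 9 genes in single mice; points are the 6 mice of each group, and the black line and bars are their mean and SD. The 12 females lie above the 12 males in Igtp, Gbp3 and Gbp2, most do so in Ifi44, Oas2 and Rtp4, and the 4 groups overlap in Irf7, Rsad2 and Bst2.

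The oligoadenylate synthetases make the second messenger that activates RNase L upon contact with double-stranded RNA. Mx1 and Mx2 belong to a family of GTPases that trap viral ribonucleoproteins. Of these 7 genes, 2 were lower in males in WT and 4 in KO mice, and 0 were higher. Oas3, which passed the expression filter mainly through the females, is among the 4. Oas2 had 1.06 to 2.87 CPM in mWT mice with a median of 1.93, 1.66 to 3.03 CPM in mKO mice with a median of 2.08, 2.41 to 5.85 CPM in fWT mice with a median of 3.62 and 3.15 to 5.52 CPM in fKO mice with a median of 3.34. The sexes did not overlap in KO mice and overlapped in WT mice, where mWT mouse 3 exceeded fWT mouse 5. The log2 fold change was −1.01 ± 0.22 in WT (adjusted p = 0.00215 by edgeR) and −0.75 ± 0.22 in KO mice (adjusted p = 0.0205). In KO mice, it became −0.59 without fKO mouse 5 and no longer passed p under 0.01.

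Oasl2, a relative of these enzymes, gave −0.65 ± 0.20 in WT and −0.70 ± 0.20 in KO mice, and its call in WT mice was lost without mWT mouse 3 or 4 or fWT mouse 3 or 4 (p up to 0.0188). Oas1a gave −0.65 ± 0.24 in WT (adjusted p = 0.0618 by edgeR) and −0.97 ± 0.25 in KO mice (adjusted p = 0.00738 by edgeR). It passed p under 0.01 in WT mice when any 1 of mWT 1, mWT 4, mKO 1, fWT 2 or fWT 6 was left out. Of its 100-base stretches, 40.9% occur in Oas1g transcripts too. Oas3 gave −1.01 ± 0.37 in WT and −1.11 ± 0.38 in KO mice at mean levels of at most 1.08 CPM. Its means were 0.54 CPM in mWT and 0.41 CPM in mKO mice, below the 0.66 CPM of the expression filter. In fWT and fKO mice they were 1.08 and 0.88 CPM. Oas3 passed the filter mainly through the females, so that its sex difference is not independent of the filter. Its adjusted p by edgeR was 0.0564 in WT and 0.0509 in KO mice. Its call in KO mice was lost when any 1 of mKO 2, 3, 4 or 5 or fKO 1, 2, 3 or 5 was left out, and in WT mice a call was gained without any 1 of 7 mice (mWT 6, mKO 1 and 6, fWT 5 and 6, fKO 4 and 6).

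Oasl1, the most highly expressed gene of this group in CPM, Mx1 and Mx2 were not called. Oasl1 lay between 5.41 and 11.8 CPM over all mice and gave −0.06 ± 0.14 in WT and 0.22 ± 0.14 in KO mice. Mx1 gave −0.13 ± 0.29 and −0.08 ± 0.29 and Mx2 −0.11 ± 0.18 and −0.22 ± 0.17. Mx2 is annotated as a polymorphic pseudogene in this genome. Whether Mx1 or Mx2 gives a working protein in these mice was not tested.

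The IFIT proteins recognise viral RNA caps, Isg15 is a ubiquitin-like tag, and Isg20 is an exonuclease. Of the 7 genes with Usp18 and Rsad2, 4 were lower in males in WT and 0 in KO mice. Ifit3 had 5.06 to 10.6 CPM in mWT mice with a median of 9.04, 7.02 to 13.8 CPM in mKO mice with a median of 10.04, 10.98 to 20.4 CPM in fWT mice with a median of 13.0 and 11.9 to 14.98 CPM in fKO mice with a median of 13.8. The sexes were apart in WT but not in KO mice, with log2 fold changes of −0.72 ± 0.17 (adjusted p = 0.0037 by edgeR) and −0.40 ± 0.17 (adjusted p = 0.114). Without mKO mouse 2, the value in KO mice was −0.50 and passed p under 0.01. Ifit3 shares 31.7% of its 100-base stretches with Ifit3b.

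Ifit1 gave −0.64 ± 0.22, Ifit2 −0.48 ± 0.17 and Usp18 −0.43 ± 0.13 in WT mice, and −0.31 ± 0.22, −0.28 ± 0.17 and −0.21 ± 0.13 in KO mice. These 3 calls depended on single mice. Ifit1 lost its call without any 1 of mWT 1, 3, 5 and 6 and fWT 3, 4 and 6 (p up to 0.0319). Ifit2 lost it without any 1 of mWT 1, 5 and 6 and fWT 2, 3 and 4 (p up to 0.0251). Usp18 lost it without mWT mouse 2 or fWT mouse 3 (p up to 0.0148). Isg15, Isg20 and Rsad2 were not called, with −0.51 ± 0.20, −0.45 ± 0.30 and −0.08 ± 0.26 in WT and −0.29 ± 0.20, 0.09 ± 0.29 and 0.38 ± 0.26 in KO mice. Isg15 passed p under 0.01 in WT mice without mWT mouse 1, fWT mouse 6 or fKO mouse 4 (p from 0.00461 to 0.00878).

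The cytosolic RNA sensors showed small differences. Ddx58 (RIG-I) ranged from 23.8 to 31.5 CPM in mWT and 26.6 to 40.1 CPM in fWT mice and gave −0.35 ± 0.10 in WT (adjusted p = 0.0168 by edgeR) and −0.25 ± 0.10 in KO mice (adjusted p = 0.104). Leaving out mKO mouse 4 brought the latter to −0.31, which passed p under 0.01. Ifih1 (MDA5), the most highly expressed sensor in CPM, had a difference of 0.01 ± 0.08 in WT and −0.25 ± 0.08 in KO mice (adjusted p = 0.0336 by edgeR). Its call in KO mice was lost without mKO mouse 3 or 6 or fKO mouse 6 (p up to 0.0171). Dhx58 (LGP2), which modulates both, gave −0.15 ± 0.14 and 0.08 ± 0.14.

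Of the 4 signalling and transcription factors, Irf9 alone was called, in WT mice. It ranged from 23.5 to 32.2 CPM in mWT and from 26.7 to 38.3 CPM in fWT mice, with −0.26 ± 0.09 (adjusted p = 0.0446 by edgeR) in WT and −0.11 ± 0.09 in KO mice. The call was lost without any 1 of mWT 2, 4, 5 and 6 and fWT 2, 3 and 4 (p up to 0.0309), and part of its exons overlap those of Rnf31 on the same strand. Irf1, the factor that drives many interferon gamma targets, gave −0.50 ± 0.21 in WT (adjusted p = 0.106 by edgeR) and −0.42 ± 0.21 in KO mice, and passed p under 0.01 in WT without mWT mouse 3, fWT mouse 5 or fWT mouse 6. Irf7 gave −0.12 ± 0.15 and −0.26 ± 0.15 and Stat2 −0.06 ± 0.12 and −0.18 ± 0.12.

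Both chemokines, ligands of Cxcr3, a chemokine receptor of T cells, were lower in mWT than in fWT mice. Cxcl9 had 4.17 to 11.46 CPM in mWT mice with a median of 6.01, 4.23 to 9.23 CPM in mKO mice with a median of 6.05, 7.30 to 25.5 CPM in fWT mice with a median of 11.97 and 7.83 to 16.1 CPM in fKO mice with a median of 11.2. The fWT mice 2 and 3 stood above all others at 24.9 and 25.5 CPM. The log2 fold change was −1.12 ± 0.32 in WT (adjusted p = 0.0175 by edgeR) and −0.82 ± 0.32 in KO mice (adjusted p = 0.0933). Cxcl10 gave −0.84 ± 0.28 in WT (adjusted p = 0.0359 by edgeR) and −0.50 ± 0.28 in KO mice, at mean levels of at most 2.99 CPM. Its call in WT mice was lost without any 1 of mWT 1, 3 and 5 and fWT 1 and 3 (p up to 0.0186).

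Of the 6 remaining genes, Ifi44, Parp14, Rtp4 and Xaf1 were lower in males in both genotypes. Ifi44, an interferon-induced cytoplasmic protein, had 2.40 to 3.63 CPM in mWT mice with a median of 2.71, 2.25 to 4.32 CPM in mKO mice with a median of 2.74, 3.68 to 6.72 CPM in fWT mice with a median of 5.65 and 4.95 to 6.83 CPM in fKO mice with a median of 5.92. The sexes did not overlap within either genotype, at −0.91 ± 0.16 in WT and −1.001 ± 0.157 in KO mice (adjusted p = 0.00018 by edgeR in WT). Xaf1, a promoter of apoptosis, gave −0.52 ± 0.15 and −0.58 ± 0.15, Rtp4, a chaperone of receptor transport, −0.51 ± 0.12 and −0.42 ± 0.11, and Parp14, an ADP-ribosyltransferase, −0.35 ± 0.10 and −0.38 ± 0.10. Male and female mice did not overlap for Rtp4 in WT and for Parp14 in KO mice. Rtp4 shares 11.2% of its 100-base stretches with Gm45338.

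Ifi35 and Bst2 were not called. Ifi35, a partner of transcription factors that is also secreted as a danger signal, gave −0.01 ± 0.09 in WT and 0.03 ± 0.09 in KO mice, with intervals between −0.20 and 0.22. Bst2 gave −0.20 ± 0.09 in WT (adjusted p = 0.123 by edgeR) and 0.07 ± 0.09 in KO mice. Without mWT mouse 4, the value in WT was −0.27 and passed p under 0.01.

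Markers of leukocytes and macrophages moved with the sex difference. At p under 0.01, 9.15% of all genes were lower in males in WT and 7.89% in KO mice. In WT mice, 5 of 5 pan-leukocyte and 8 of 11 Kupffer cell and macrophage markers were lower in males at that cut-off, with medians of −0.79 and −0.73 on the log2 scale. The 8 were C1qa, C1qb, C1qc, Cd5l, Cd68, Clec4f, Csf1r and Vsig4, while Adgre1, Timd4 and Marco were not called. The 11 Kupffer markers summed to between 101 and 212 CPM in mWT and between 190 and 339 CPM in fWT mice. In KO mice, 0 of 5 and 0 of 11 passed, but for the difference between the genotypes, which is the test of the difference of the KO effects, 0 of 5 and 0 of 11 passed p under 0.01 as well. The medians in KO mice were −0.41 and −0.37, and the Kupffer sums ranged from 99.3 to 269 CPM in mKO and from 158 to 283 CPM in fKO mice. The 5 leukocyte markers summed to 12.7 to 20.5 CPM in mWT, 21.6 to 43.3 in fWT, 13.0 to 30.3 in mKO and 18.1 to 36.8 CPM in fKO mice. In WT mice, 4 of 7 sinusoidal endothelial and 2 of 7 stellate cell markers were also lower in males, and 1 and 3 in KO mice. Spp1, 1 of 3 cholangiocyte markers tested, was lower in males in both genotypes, while 0 of 6 B and plasma cell markers were called. Of the hepatocyte, dendritic cell and neutrophil markers tested, 0 of 9, 0 of 2 and 0 of 1 were called in WT mice. Of the T and NK cell markers only Cd4 could be tested, and it was higher in males, by 1.95 ± 0.36 in WT and 1.75 ± 0.34 in KO mice. Markers of neutrophils summed to at most 3.17 CPM, with Ly6g at 0 in all 24 mice, of T and NK cells to at most 6.39 CPM and of dendritic cells to at most 6.34 CPM.

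The log2 of the summed leukocyte and Kupffer markers was entered as a covariate, which was chosen after the data had been seen. With it, 7 of the 35 genes remained lower in mWT than in fWT mice at p under 0.01 (Gbp2, Gbp3, Gbp7, Igtp, Ifi44, Ifit3 and Rtp4). Of all genes, 10.9% passed with the covariate and 18.2% without it, both directions together. The median log2 fold change of the 35 genes was −0.28 with the covariate in place of −0.48. In KO mice 10 of the 13 genes remained (Gbp2, Gbp3, Gbp7, Igtp, Ifi44, Ifih1, Oas1a, Parp14, Rtp4 and Xaf1), where 12.4% of all genes passed. The GTPases Gbp2, Gbp3, Gbp7 and Igtp with Ifi44 and Rtp4 were thus called with and without the markers in both genotypes. Irgm1, Iigp1, Cxcl9, Cxcl10, Oas2, Oasl2, Ifit1, Ifit2, Usp18, Irf9, Ddx58, Parp14 and Xaf1 were not called in WT mice with them. Their standard errors were larger with the covariate. Irgm1 went from −0.33 ± 0.09 to −0.28 ± 0.12 and Iigp1 from −0.34 ± 0.12 to −0.08 ± 0.13. A lost call alone therefore does not measure how far a gene follows the markers. Without the covariate and without fWT mouse 3, 13 of the 35 genes passed in WT mice, where 16.9% of all genes did. Over all 24 mice left out in turn the count lay between 13 and 23. In KO mice it lay between 11 and 14.

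Other genes of the pathway were compared between the sexes at p under 0.01. Of all genes, 9.15% were lower in males at that cut-off in WT and 7.89% in KO mice. At which step of the pathway the sex difference arises was not tested. The interferon genes themselves were close to absent. Of 8 interferon genes, Ifna1, Ifna2, Ifna4, Ifne, Ifnl2 and Ifnl3 had 0 counts in all 24 mice, and Ifnb1 and Ifng had at most 2 counts in any mouse, so that 0 of 8 could be tested. Of the 9 receptor and JAK-STAT genes tested, 2 were lower in males in WT and 1 in KO mice, Ifngr1 in both, and 0 were higher. Ifngr1, the ligand-binding chain of the interferon gamma receptor, was expressed at 12.6 ± 0.945 CPM (SD, n = 6) in mWT, 12.2 ± 1.26 in mKO, 16.7 ± 2.495 in fWT and 16.4 ± 1.60 CPM in fKO mice. Its log2 fold change was −0.41 ± 0.09 in WT and −0.43 ± 0.09 in KO mice, with males and females apart in both. Ifnar1, Ifnar2, Jak1, Jak2 and Tyk2 were not called.

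Of 12 tested genes of nucleic acid sensing upstream of interferon, 1 was lower in males in WT (Tmem173, STING, −0.70 ± 0.19) and 0 in KO mice. Of all genes, 9.15% and 7.89% were lower in males at p under 0.01. Of 6 negative regulators, Trim24 was lower and Irf2 higher in males in both genotypes, and Pias1 was lower in WT mice. Trim24, a repressor of interferon signalling in hepatocytes, had the largest sex difference of the pathway genes in KO mice, with −1.10 ± 0.14 in WT and −1.82 ± 0.14 in KO mice (adjusted p = 6.71e-10 by edgeR in KO). Its mean was 29.6 CPM in mWT, 19.95 in mKO, 63.4 in fWT and 70.6 CPM in fKO mice. Its KO effect in males, −0.57 ± 0.14, and the difference of the KO effects, −0.73 ± 0.19, passed p under 0.01 but had adjusted p values of 0.102 and 0.745 by edgeR. Irf2, an antagonist of Irf1, gave 0.32 ± 0.07 in both genotypes.

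Among 58 further interferon-stimulated genes tested, 31 were lower in males in WT and 15 in KO mice at p under 0.01, and 0 were higher. Of all genes, 9.15% and 7.89% were lower in males at that cut-off. All of the 31 and the 15 also had an adjusted p under 0.05. Ifit3b, Oas1g and Irgm2 share transcript stretches with Ifit3, Oas1a and Igtp, so that their calls may not be separate from those of the 35 genes. With the smallest p-values in WT mice stood Samd9l, Trim30a, Irgm2, Uba7, Ddx60, Ifit3b and Zbp1, at log2 fold changes from −1.11 (Samd9l) to −0.57 (Ddx60). In KO mice, Zbp1, Samd9l, Herc6, Irgm2, Ddx60, Oas1g, Slfn8 and Uba7 led, from −1.40 (Zbp1 and Oas1g) to −0.58 (Herc6). Irgm2, like Igtp a GTPase, was expressed at 43.2 ± 4.19 CPM (SD, n = 6) in mWT and 76.5 ± 13.5 CPM in fWT mice. In the KO comparisons, 4 of the 58 passed p under 0.01 in males (Gbp6, Gbp10, Ifit3b and Lgals3bp), where 3.52% of all genes did. In females, 1 passed (Parp10), where 0.868% of all genes did. For the difference of the KO effects, Lgals3bp passed, where 1.16% of all genes did. In these 3 comparisons, 0 passed an adjusted p under 0.05.

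Within the groups, single mice differed in how high these genes stood together. After removal of the group means, the Pearson correlation of log2 CPM over the 24 mice had a median of 0.30 over the 595 pairs of the 35 genes, against −0.001 over all pairs of the 12330 genes. Of the pairs, 86.9% were above 0 and 17.6% above 0.5, where 3.82% of the pairs of all genes were above 0.5. The median was 0.24 in males alone and 0.38 in females alone. These values describe 24 mice that share libraries, depth and cell composition across genes, and no p-value is attached to them. The highest correlations were between Gbp2 and Cxcl9 (0.84), Irf9 and Rtp4 (0.82), Ifit1 and Rsad2 (0.81), Oasl2 and Ifi44 (0.81), Ifit1 and Ifit3 (0.79), Irf9 and Xaf1 (0.79) and Igtp and Irgm1 (0.78).

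The highest medians were those of pairs within 4 of the functional groups. The median was 0.50 among the GTPases, 0.43 among the IFIT, Isg15 and viperin genes, 0.43 among the Mx and OAS genes and 0.49 over the 3 pairs of RNA sensors. Between the GTPases and the IFIT group it was 0.20, and between the chemokines and the RNA sensors −0.11. Between the GTPases and the group of other interferon-stimulated genes it was 0.42, close to the medians within the 4 groups. Within the remaining groups it was 0.28 (signalling and transcription factors), 0.27 (the chemokine pair) and 0.31 (other genes). Xaf1 had the highest median correlation with the other 34 genes (0.46), followed by Oasl2 (0.44), Gbp3 (0.44) and Rtp4 (0.42), and Isg20 the lowest (−0.05).

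**Figure D5:**
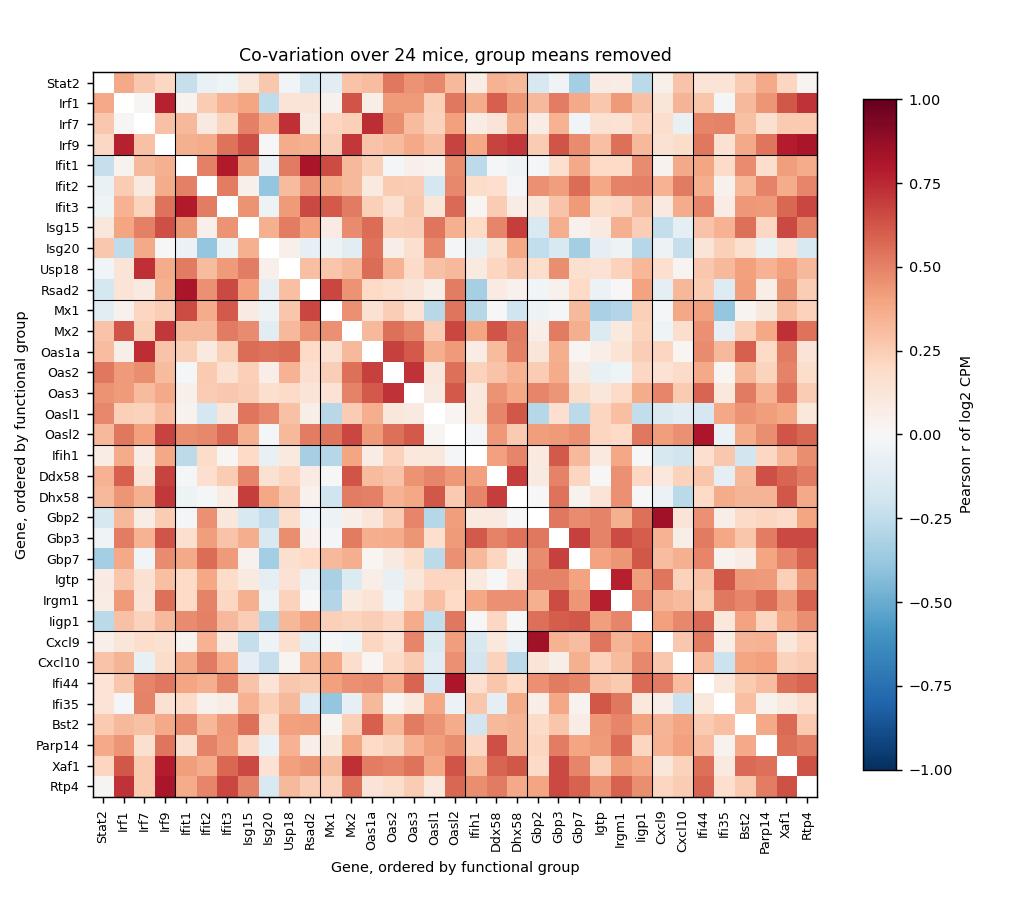
Pearson r of log2 CPM between each pair of the 35 genes over 24 mice, after removal of the 4 group means; black lines separate the functional groups and the diagonal is blank. Red (positive) fills most of the map, with a median of 0.30, and is deep within groups, as for Igtp with Irgm1 and Ifit1 with Ifit3, as well as between them, as for Gbp2 with Cxcl9.

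The fWT and mKO groups held the mice farthest from their group mean. Of the 35 genes, 31 were above the group mean in fWT mouse 4 and 30 in fWT mouse 3, while 4 were in fWT mouse 5 and 5 in fWT mouse 6. Among all 24 mice, fWT mouse 4 was the highest in 11 and fWT mouse 3 in 8 of the 35 genes. Among the mKO mice, 31 genes were above the group mean in mouse 1, 29 in mouse 2 and 4 in mouse 5. The Kupffer cell and leukocyte marker sums were lowest in fWT mouse 5 within fWT mice and highest in mKO mouse 1 within mKO mice, while fWT mouse 1 and mKO mouse 4 had the highest and the lowest sums of these groups.

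Irf7 was taken as the reference for a test of this co-variation, with its log2 CPM centred on the group mean as a covariate for every other gene. The slope was above 0 for 31 of the other 34 interferon-stimulated genes, with a median of 0.24, and for 5988 of all 12329 genes, with a median of −0.01. At an adjusted p under 0.05, 0 of 34 passed (0.00811% of all genes). At an unadjusted p under 0.05, 6 of 34 passed, all with a positive slope (Usp18, Oas1a, Isg15, Ifi44, Ifi35 and Oasl2), where 5.62% of all genes passed and 2.68% did so with a positive slope. This count depended on the reference gene. With Irf9 in place of Irf7, 14 passed at an unadjusted p under 0.05 (9.35% of all genes) and 2 at an adjusted one (0.0162% of all genes). With Stat2, 3 passed at an unadjusted p under 0.05 (18.4% of all genes) and the slope of Usp18 was −0.073. The slope was 0.64 ± 0.14 for Usp18 (adjusted p = 0.372 by edgeR) and 1.16 ± 0.28 for Oas1a (adjusted p = 0.547), log2 units per log2 unit of Irf7. Without 1 mouse, Oasl2 lost its call in 5 cases (mWT 1, mKO 1, fWT 3, 4 and 5; 0.45 to 0.55), Ifi35 without mWT mouse 2 or 4 (0.21 and 0.24) and Ifi44 without mKO mouse 1 (0.39).

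The genes outside the list that were most like the 35 were found by their correlation with the mean of the standardised values of the 35, over 24 mice with group means removed. The 10 highest included Tomm40l (0.82), Zfp579 (0.81), Herc6 (0.81), Trim30a (0.76), Gbp10 (0.74), Ifi203 (0.74), Gm43302 (0.73), Rnf213 (0.73) and Cxcl1 (0.73). Of these 10, 5 belong to the pathway lists. The median correlation was 0.48 over the 58 further interferon-stimulated genes, 0.47 over the 5 pan-leukocyte and 0.43 over the 11 Kupffer cell markers, −0.21 over the 9 hepatocyte markers, and 0.002 over all 12295 genes outside the list. The part of cell composition in this co-variation was not tested.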

How the data were processed

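The authors extracted RNA from snap-frozen liver, made stranded mRNA libraries and sequenced 100-base single-end reads in 1 multiplexed run. Reads were trimmed (fastp), aligned to GRCm38.p6 (STAR) and counted per Ensembl gene (featureCounts). The deposited values are raw counts for each mouse, without normalization. The annotation release, the strand setting and the handling of reads mapping to several places are not given in the sources used here, so that counts of overlapping or near-identical genes are uncertain. Gene names, coordinates and exon lengths came from GENCODE M21 (25635 of 25746 genes matched). Promoters came from RefSeq.

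Counts were analysed with edgeR 4.0.16 in R 4.3.3. A gene was kept when 6 or more of the 24 libraries had 0.66 CPM or more, TMM factors were used, and a robust quasi-likelihood model with 4 group means was fitted to all 24 libraries. Genes were called at an unadjusted p under 0.01, the study's cut-off, and at a Benjamini-Hochberg adjusted p under 0.05 over all 12330 genes. Values after ± are standard errors of log2 fold changes, or SD where stated. Depth was 15361901 to 26261394 counts, and the 3-count limit covers counting error only. Mice of 1 group were never within sampling noise of each other (lowest chi-square per gene 7.68). Each library is 1 animal, and cages and litters are not in the labels.

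The 35 genes, the pathway lists and the marker lists were chosen with earlier results of these data known. Genes named with full values were those with p under 0.01 in at least 1 comparison and the most highly expressed of each functional group. Irf7, the reference gene of the slopes, and Rsad2 were given in full outside this rule, after their values had been seen. Pathway genes named were those with an adjusted p under 0.05, at most 10 per comparison by p. Other genes named beside a count of 5 or fewer, and the covariate of leukocyte and Kupffer markers and the edgeR 4 deviances, were chosen after their values or the data had been seen. One pathway gene is not reported here. One hepatocyte marker, Tf, was not matched by name. Fits were tested on simulated counts. DESeq2 1.42.0, other scalings and filters, a replicate block, other reference genes and the omission of each mouse were alternatives. Figures were drawn with matplotlib 3.10.9.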

Additional observations from a re-analysis of the deposited data

Results flagged for a closer look

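In 12 of the 140 sets of 6 mice (35 genes in 4 groups), the highest mouse stood apart from the other 5, by a gap to its nearest neighbour whose ratio to the group's whole range exceeded Dixon's critical value. Chance flags about 1 in 20 such sets. In mKO mice these were Stat2 in mouse 4 (56.5 CPM, others 42.7 to 47.4, ratio 0.664), Irf1 in mouse 2 (31.0 CPM, others 17.9 to 22.4, ratio 0.658) and Irf7 in mouse 1 (23.5 CPM, others 17.9 to 19.4, ratio 0.732). In WT mice they were Ifit1 in fWT mouse 3 (20.4 CPM, others 11.3 to 14.1, ratio 0.687), Ifih1 in mWT mouse 3 (49.5 CPM, others 37.5 to 39.6, ratio 0.824) and Bst2 in mWT mouse 4 (74.4 CPM, others 53.8 to 59.4, ratio 0.73). In fKO mice they were Ifit2 (4.89 CPM, others 3.45 to 3.93, ratio 0.663) and Gbp7 (34.4 CPM, others 26.1 to 28.9, ratio 0.667) in mouse 4, Usp18 in mouse 6 (14.8 CPM, others 10.4 to 11.6, ratio 0.72), Oas2 in mouse 5 (5.52 CPM, others 3.15 to 3.54, ratio 0.836), Ddx58 in mouse 3 (40.3 CPM, lowest of the others 31.9, ratio 0.629) and Parp14 in mouse 1 (54.4 CPM, others 43.5 to 46.0, ratio 0.767). No sample stood apart at the low end.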

How the results depend on the processing

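Of 437 recomputed values of the main results, 14 moved and 423 counted as kept, by their size within 1.5 times or their side of the threshold. For 29 of the 423, the median correlation of the 35 genes, another rule held. It counted as kept with the same sign and a change under the SD over pairs, 0.24, a wide margin beside its median of 0.30. With total counts in place of TMM, 1 gene (Usp18) passed for the KO effect in females, where 1.18% of all genes did. With the marker covariate, 7 genes passed for the sex difference in WT mice (10.9% of all genes), 5 of them after adjustment (8.11%). With Irf9 as the reference gene of the slopes, 14 genes passed at an unadjusted p under 0.05 (9.35% of all genes) and 2 at an adjusted one (0.0162%). With Stat2 as the reference, 3 passed at an unadjusted p (18.4% of all genes), and the slope of Usp18 turned to −0.073. The cause was not tested. Leaving out 1 mouse at a time gave 0 to 1 genes for the KO effect in males, in females and for their difference, 13 to 23 for the sex difference in WT (12 to 23 after adjustment) and 11 to 14 in KO mice (9 to 14 after adjustment). Of 1759 recomputed values of single genes, 102 lost and 34 gained a call and 1 reversed.

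With the replicate number as a block, 19 genes passed in WT and 13 in KO mice, 11 of the latter after adjustment, and 0 for the KO effects. In the main fit, without the block, 18.2% and 15.9% of all genes passed p under 0.01 for the sex difference in WT and KO mice. The numbers do not pair the mice, which are different animals: the correlation of same-numbered mice lay between −0.335 and 0.169, and a mouse matched its own number best in at most 1 of 6 cases. Genes with few counts, such as Oas3, are limited by depth.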
